A study of Mus musculus with 289 samples.

Results

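The respiratory chain genes were taken by name from the deposited count table. The rule kept every gene whose symbol begins with mt- or belongs to the Ndufa, Ndufb, Ndufc, Ndufs, Ndufv, Cox4 to Cox8, Atp5 or Uqcr families, together with Sdha, Sdhb, Sdhc, Sdhd, Cyc1 and Cycs. It found 105 of the 15019 genes, of which 13 are encoded in mitochondrial DNA and 92 in the nucleus. The nuclear members comprise 37 genes of complex I, 8 complex I assembly factors whose Ndufaf symbols the rule also takes, 4 of complex II, 9 of complex III, 15 of complex IV, 18 of complex V and the gene of cytochrome c. Ndufa4 and Ndufa4l2 were counted with complex IV, since the Ndufa4 protein is a subunit of cytochrome c oxidase. No expression value was used to choose them, and all 105 had at least 1 count.

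The cells were tomato-positive epidermal keratinocytes from the unwounded tail skin of mice that carry Lrig1-EGFP-ires-CreERT2 together with the reporter Rosa26-fl/STOP/fl-tdTomato on a mixed CBA and C57BL/6 strain, young adults at labelling, all of which had received a single topical dose of hydroxytamoxifen. In these mice the Cre recombinase is made under the Lrig1 locus, so the tomato label marks Lrig1-expressing cells of the upper hair follicle and their later descendants, and other skin cells that express Lrig1, such as fibroblasts, can carry it too. The skin was then given either vehicle or PRT4165, a small molecule that blocks Ring1a and Ring1b, the histone-ubiquitinating enzymes of Polycomb repressive complex 1, and the comparison asks whether this inhibitor changes the transcripts of uninjured cells. The 289 cells were sequenced singly as full-length cDNA and lie on 4 plates. The vehicle plates, replicates 1 and 2, held 75 and 58 cells, and those of PRT4165 held 76 and 80. Groups of 4 values are in the order vehicle replicate 1, vehicle replicate 2, PRT4165 replicate 1 and PRT4165 replicate 2. The plate was the unit of replication, with n = 2 per treatment. The labels do not give the number of mice behind a plate, p-values measure only the spread between plates, and each plate held cells of 1 treatment, so that within a replicate number an effect of the plate cannot be told apart from one of the treatment. The treatment labels also hold an unexplained code that is shared by both plates of a treatment and differs between the treatments. Whatever it stands for cannot be told apart from the treatment over all 4 plates. All cells were used, also those with over 50% mitochondrially encoded counts.

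The respiratory chain passes electrons from NADH and succinate to oxygen in the inner mitochondrial membrane. Complex I takes electrons from NADH and complex II from succinate, complex III hands them to cytochrome c, complex IV passes them on to oxygen, and complex V uses the resulting proton gradient to make ATP. Complexes I, III, IV and V combine subunits made inside the mitochondrion with subunits imported from the cytosol, while complex II and cytochrome c are made from nuclear genes alone. The mitochondrially encoded mRNAs are cut from long transcripts of the mitochondrial genome, whereas each nuclear subunit has a promoter of its own. In skin, basal epidermal cells and sebocytes are rich in mitochondria, and the organelles are lost as keratinocytes cornify.

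Some mitochondrial genes share bases, and this limits how reads can be given to either gene. The last 43 bases of mt-Atp8 are the first 43 bases of mt-Atp6 on the same strand (GRCm38, chrM:7927-7969), which is 21.1% of mt-Atp8 and 6.31% of mt-Atp6. The genes mt-Nd5 and mt-Nd6 lie on opposite strands and overlap by 14 bases at their ends (chrM:13552-13565). Shorter overlaps, such as the 7 bases of mt-Nd4l and mt-Nd4 on the same strand, are not shown. Both stretches are shown because reads within them cannot be given to 1 gene. In the first, the genes lie on the same strand. In the second, the library did not keep the strand, so reads from either gene, or from antisense RNA of mt-Nd6, cannot be told apart. In the first stretch the capitals mark the start codon of mt-Atp6 and the stop codon of mt-Atp8, and in the second the stop codons of mt-Nd6 (on the opposite strand) and mt-Nd5.
mt-Atp8 and mt-Atp6: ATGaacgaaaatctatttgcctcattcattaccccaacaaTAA
mt-Nd5 and mt-Nd6: TTAatctcgagTAA

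The nuclear members have no such shared unit, and their promoters were searched for short motifs instead. RefSeq promoters of GRCm38.p6, from 250 bases before to 50 after the start, matched 74 of the 92 nuclear members. The motif of NRF1, a transcription factor known for many respiratory chain genes, was searched as GCGCANGCG on both strands and lay in 22 of the 74 (29.7%), against 13.4% of the 10104 promoters of genes tested here and 6.35% of all 27025 promoters. The ETS motif CCGGAAG, the core bound by GABPA, lay in 19 members (25.7%), against 17.8% of tested and 9.08% of all promoters. The YY1 motif AANATGGCG lay in 10 members (13.5%), against 5.15% and 2.51%. At least 1 of the NRF1 and ETS motifs lay in 35 members (47.3%), against 28.2% of tested and 14.2% of all promoters. The TATA letters TATAAA lay in 6 (8.11%), close to the 8.28% of tested promoters, against 14.1% of all. The oestrogen-related receptor motif TCAAGGTCA was found in 2 members (2.70%), against 0.257% of tested and 0.407% of all promoters. The cyclic AMP response motif TGACGTCA lay in 5 (6.76%), against 3.04% and 1.78%. A closer comparison is with 773 promoters of genes at or above the median level of the nuclear members. There the shares were 15.5% for NRF1, 21.3% for ETS, 6.34% for YY1 and 33.5% for NRF1 or ETS. They were 10.6% for TATA, 0.129% for the receptor motif and 3.36% for the cyclic AMP motif. The median GC content was 59% in member promoters, 60.3% in tested and 52.7% in all promoters. Matches of different motifs were allowed to overlap, and a match is a description of these letters only. The 200 bases before the start are shown for 3 members with different motif content: Cycs, which encodes the mobile electron carrier cytochrome c, Cox6a1, the complex IV subunit with the most matches in this window, and Atp5j, among the most abundant nuclear members. Capitals mark NRF1 matches in Cycs, the NRF1 matches followed by an ETS match in Cox6a1, and a YY1 match followed by an ETS match in Atp5j.
Cycs promoter, chr6:50566570-50566769, minus strand: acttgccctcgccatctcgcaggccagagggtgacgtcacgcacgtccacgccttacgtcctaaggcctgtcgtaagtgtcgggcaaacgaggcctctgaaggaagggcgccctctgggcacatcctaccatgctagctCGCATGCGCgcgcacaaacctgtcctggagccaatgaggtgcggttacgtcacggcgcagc
Cox6a1 promoter, chr5:115348959-115349158, minus strand: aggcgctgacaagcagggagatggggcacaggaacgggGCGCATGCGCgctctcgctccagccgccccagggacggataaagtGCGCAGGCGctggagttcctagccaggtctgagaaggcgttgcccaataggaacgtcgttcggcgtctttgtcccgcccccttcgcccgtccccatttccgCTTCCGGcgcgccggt
Atp5j promoter, chr16:84834977-84835176, minus strand: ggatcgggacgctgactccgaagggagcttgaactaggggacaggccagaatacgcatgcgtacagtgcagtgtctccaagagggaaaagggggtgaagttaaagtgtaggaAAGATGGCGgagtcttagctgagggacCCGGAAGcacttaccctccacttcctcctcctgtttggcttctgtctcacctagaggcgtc

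The label of the cells was checked against marker genes. Basal keratinocyte genes such as Krt5 and Krt14 summed to 2301, 4373, 2642 and 2458 CPM (counts scaled to the same total for every plate). Suprabasal genes such as Krt10 and Krtdap, of differentiating keratinocytes, were higher, at 12883, 9600, 8839 and 15429. The upper hair follicle list, which holds Krt79 and Krt17, summed to 50458, 51332, 27928 and 40542, mostly through Cst6 and Defb6. The lists for melanocytes, antigen presenting cells, T cells, fibroblasts, muscle and Merkel cells summed to at most 79.5 CPM on any plate, a value of the fibroblast list, which was at 6.23, 21.8, 79.5 and 7.03 CPM. Most of that was Dcn, at 5.38, 20.7, 74.2 and 5.40, while Col1a2 reached 2.96, Lum 1.78, Col1a1 0.465 and Pdgfra 0.0245 CPM, each on PRT4165 replicate 1. These lists were incomplete. The table held 4 of 6 melanocyte genes, 3 of 5 for antigen presenting cells and 3 of 5 for T cells. It held 5 of 6 fibroblast genes, 2 of 5 for muscle and 2 of 4 for Merkel cells. Their low sums therefore do not exclude such cells. Of the endothelial list only Pecam1 was in the table, at 227 to 614 CPM. The cells held between 9796 and 3029822 counts, and the deepest cell of a plate gave 3.70% to 8.93% of its summed counts, most on vehicle replicate 1.

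Transcripts of the 13 mitochondrial genes took a large and variable share of each cell. Over all 289 cells the share had a median of 23.3% and ran from 0.781% to 66.9%. The median cell of the vehicle plates held 18.9% (replicate 1) and 23.6% (replicate 2), and that of the PRT4165 plates 21.9% and 27.1%. The treatments overlapped, since vehicle replicate 2 lay above PRT4165 replicate 1. The group values were 21.2% ± 3.30 for vehicle and 24.5% ± 3.73 for PRT4165 (SD, n = 2 plates each), and the difference of 3.26 percentage points did not exceed the spread of the plates (exact two-sided permutation test over plates, p = 0.667, where 0.333 is the smallest that 2 against 2 plates allow). Within replicate 1 the PRT4165 plate was higher by 2.96 percentage points and within replicate 2 by 3.56. The summed counts of the plates, in which deep cells weigh more, were 33.5%, 27.1%, 30.8% and 28.5% mitochondrial, and the difference turned to -0.681 percentage points.

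The nuclear members were a much smaller and steadier part of the transcriptome. Their share of the counts that are not mitochondrially encoded had a median of 2.35%, 2.54%, 2.46% and 2.86% per cell, with 2.44% ± 0.136 for vehicle and 2.66% ± 0.281 for PRT4165. PRT4165 replicate 2 was the highest plate, and PRT4165 replicate 1 lay between the vehicle plates. The means over cells were 2.38%, 2.64%, 2.71% and 3.17%, so that both PRT4165 plates lay above both vehicle plates and the difference was 0.431 percentage points (exact permutation test, p = 0.333, the smallest possible). The difference of 0.216 percentage points between the medians was within the plate spread (exact permutation test, p = 0.667), and within replicates 1 and 2 it was 0.113 and 0.318. The interquartile range over the cells of a plate was 1.70% to 2.85% on vehicle replicate 1 and 2.32% to 3.51% on PRT4165 replicate 2.

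Mitochondrial counts outnumbered nuclear member counts in all but 3 cells. The log2 ratio of the former to the latter, each with 1 count added, had a median of 3.34, 3.53, 3.51 and 3.60 per cell. The groups, at 3.43 ± 0.14 and 3.56 ± 0.06, differed by 0.12 on the log2 scale (exact permutation test, p = 0.667). The plates again overlapped. In the summed counts there were 21.3, 14.2, 17.4 and 13.03 mitochondrial counts for each nuclear member count, with replicate 1 above replicate 2 in both treatments, and the log2 difference between treatments was then -0.21. The highest single ratio was 10.42, in a cell of vehicle replicate 1, and the lowest was -0.76 on PRT4165 replicate 1.

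**Figure D1:**
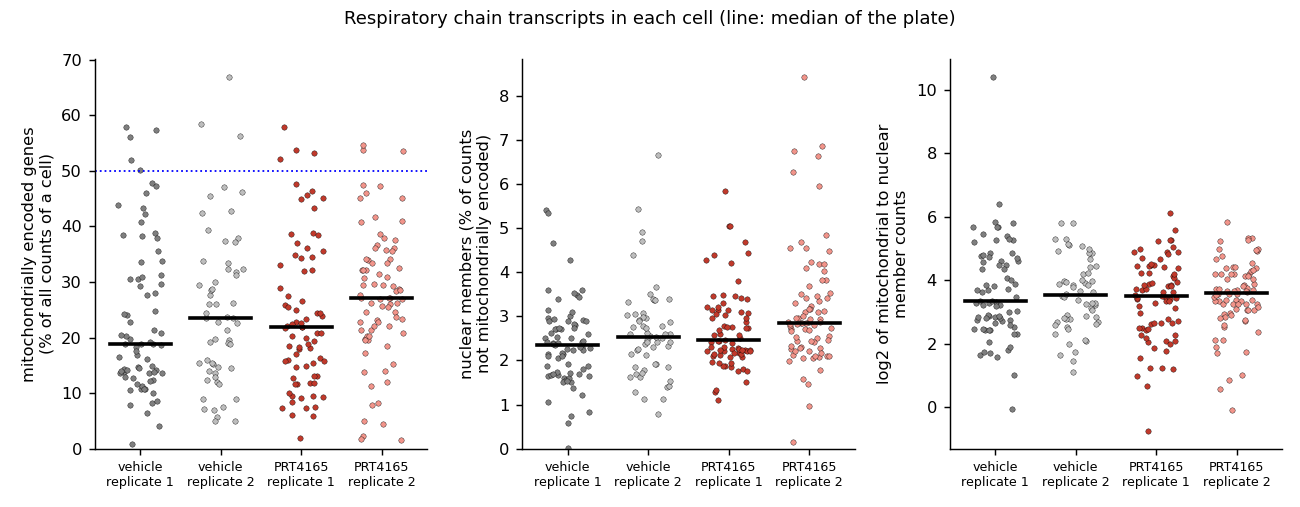
Percentage of mitochondrially encoded counts, percentage of nuclear member counts among the other counts, and log2 ratio of mitochondrial to nuclear member counts, for each of 289 cells on 4 plates. Points are cells, black lines are plate medians (18.9%, 23.6%, 21.9% and 27.1% in the left panel), and the dotted line marks 50%; the plates of the treatments overlap in every panel.

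Cells with over 50% mitochondrial counts were few on every plate and were not the shallow ones. They numbered 5 of 75, 3 of 58, 4 of 76 and 3 of 80, or 6.67% (Wilson 95% interval 2.88 to 14.7), 5.17% (1.77 to 14.1), 5.26% (2.07 to 12.8) and 3.75% (1.28 to 10.5), where the intervals cover counting error only. The difference between treatments was -1.41 percentage points (exact permutation test, p = 0.667), and a limit of 30% in place of 50% turned it to 2.998. Within replicates 1 and 2 it was -1.40 and -1.42. The 15 cells held a median of 563790 counts (224398 to 2821960), against 414249 in the other cells, but a median of 2284 detected genes against 3493. Their nuclear member share was 2.71%, against 2.55% in the other 274, with a range of 1.61% to 4.40%. The plates differed in this, with 1.91% against 2.36% on vehicle replicate 1, 3.65% against 2.52% on vehicle replicate 2, 2.67% against 2.46% on PRT4165 replicate 1 and 3.02% against 2.85% on PRT4165 replicate 2.

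The mitochondrial share moved with the depth of a cell. Its Pearson correlation with the log2 of the total count was 0.49 over 75 cells, 0.27 over 58, 0.57 over 76 and 0.25 over 80, and the total count itself holds the mitochondrial counts. The 48 cells under 100000 counts had a median mitochondrial share of 14.7%, against 24.8% in the 241 deeper cells. Vehicle replicate 1 held 25 of these shallow cells, PRT4165 replicate 1 held 15, PRT4165 replicate 2 held 7 and vehicle replicate 2 held 1. In cells of at least 100000 counts the medians were 22.1%, 23.6%, 23.9% and 28.3%, and both PRT4165 plates then lay above both vehicle plates (difference 3.25 percentage points, exact permutation test, p = 0.333, the smallest possible). The part of depth in the differences between plates was not tested.

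The nuclear share moved less with depth than the mitochondrial share did, and it also moved with marker genes. Its Pearson correlation with log2 total counts was -0.07, 0.12, -0.33 and -0.09 over the same cells (Spearman -0.06, 0.02, -0.21 and -0.08). It was lower in cells with more upper hair follicle transcripts, with Spearman correlations of -0.27, -0.40, -0.24 and -0.46. The suprabasal list gave -0.20, -0.30, -0.22 and -0.50. The share was higher in cells with more sebaceous gland transcripts such as Scd1 and Mgst1, with Spearman correlations of 0.19, 0.17, 0.18 and 0.59. The basal list gave 0.31, -0.01, 0.11 and 0.15, and the cycling list 0.22, 0.21, 0.16 and 0.02. On PRT4165 replicate 1 the value for depth was of similar size to those for the marker lists. Among the plates, the sebaceous list summed to 582, 1735, 1039 and 2822 CPM, so vehicle replicate 1 was the lowest and PRT4165 replicate 2 the highest, the same order of the 4 plates as for the nuclear share. All 8 genes of this list were detected on every plate, and 1 cell gave 52.3% of its counts on vehicle replicate 2. The upper hair follicle list was lowest on PRT4165 replicate 1 in its sum, through Cst6 (26462, 38791, 13266 and 32107 CPM), whereas Krt79 (2848, 1861, 1715 and 1168 CPM), Krt17, Defb6 and Gata6 were lowest on PRT4165 replicate 2. The part of these cell types in the plate values was not tested, and in a plate sum fewer cells of a type and less RNA per cell cannot be told apart.

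Most members were detected widely. In all, 8 mitochondrial genes had a count in each of the 289 cells, and the rarest, mt-Nd6, had one in 97.9%. The number of nuclear members detected per cell had a median of 70, 64.5, 73.5 and 78. After every cell was thinned to 50000 counts that are not mitochondrially encoded, the medians were 66, 59, 69 and 70, and 11, 1, 11 and 5 cells were too shallow to be thinned. Both PRT4165 plates lay above both vehicle plates in either form, and so they did for genes of any kind, with a median of 3072, 3238.5, 3380 and 3898.5 genes detected per cell. The 15 members found in under 50% of cells include 7 of the 8 assembly factors, and Atp5o-I had 0, 7, 19 and 0 counts in all, too few to be tested.

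Among the mitochondrial genes, the subunits of complexes IV and V far exceeded those of complex I. Complex IV transcripts made up 66.8%, 70.6%, 62.9% and 65.4% of the mitochondrial counts, complex V transcripts 19.99%, 16.8%, 21.1% and 19.8%, the 7 complex I genes together 8.54%, 7.82%, 10.7% and 7.98%, and mt-Cytb, the only mitochondrial gene of complex III, 4.70%, 4.80%, 5.27% and 6.83%. The largest shares were those of the catalytic core subunits of complex IV, with 30.6% to 33.2% for mt-Co3 and 25.3% to 30.8% for mt-Co1. The smallest was that of mt-Nd6, the only member on the light strand of this annotation, at 0.157% to 0.250%. Most of each cell's mitochondrial counts therefore come from few genes, and single genes still varied, with mt-Co3 at 13.1% of a cell's mitochondrial counts at the lowest 5% of cells and 45.4% at the highest 5% (285 cells).

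Per kilobase of transcript the order was mt-Co3 first, at 123859 CPM per kb on average over the plates, then mt-Atp6 (72092), mt-Co1 (55055), mt-Atp8 (50177), mt-Co2 (27515), mt-Cytb (14245), mt-Nd1 (12122), mt-Nd4 (5424), mt-Nd4l (5147), mt-Nd3 (3564), mt-Nd2 (1588), mt-Nd5 (1419) and mt-Nd6 (1149). The levels of mt-Co3 and mt-Atp6 held their places on all 4 plates. Neighbours that changed places between plates were mt-Co1 and mt-Atp8, with mt-Co1 higher on 2 of 4 plates, and mt-Nd4 and mt-Nd4l, also on 2 of 4. The order also crossed on 1 plate between mt-Cytb and mt-Nd1 and between mt-Nd2 and mt-Nd5. The genes mt-Atp8 and mt-Atp6 are read from the same mRNA, and the level of mt-Atp8 per kilobase was 0.612, 0.762, 0.708 and 0.753 of that of mt-Atp6. The same holds for mt-Nd4l and mt-Nd4, with ratios of 1.05, 0.808, 0.864 and 1.01. How the deposited values divide reads in the bases that mt-Atp8 and mt-Atp6 share is not given in the sources used here.

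**Figure D2:**
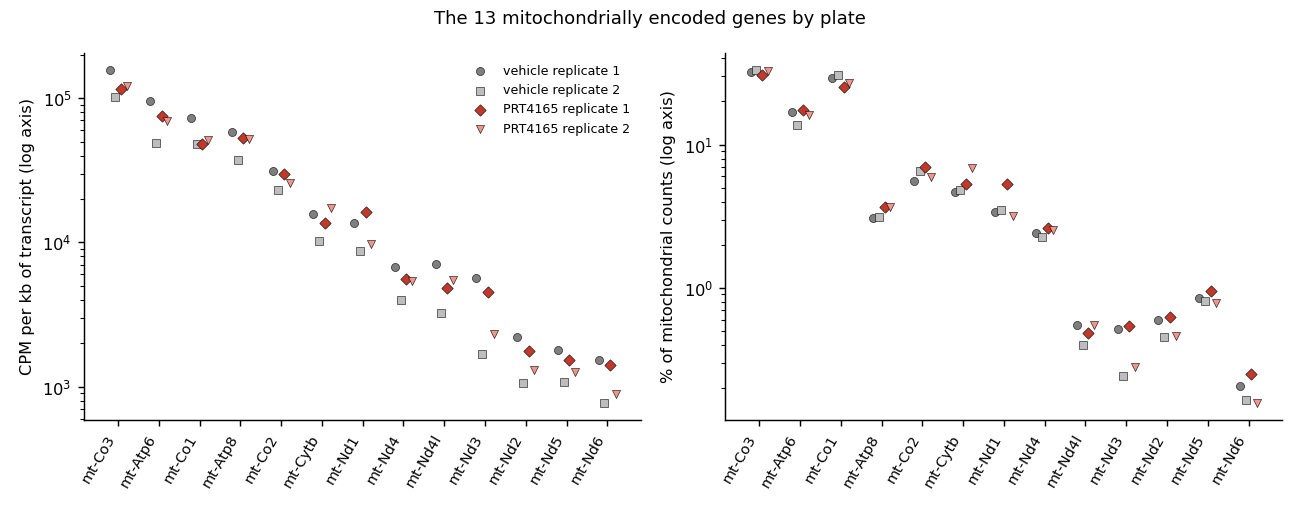
Level of each of the 13 mitochondrial genes in CPM per kilobase of transcript (left) and as a percentage of all mitochondrial counts of the plate (right), both on log axes. Points are the 4 plates, and the genes are ordered by mean level per kilobase from mt-Co3 (123859) to mt-Nd6 (1149); mt-Nd3 lies lower on both replicate 2 plates.

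No mitochondrial gene separated the treatments. In TMM-scaled CPM, mt-Co3, a core subunit of complex IV, was at 122807, 80316, 90266 and 95033, so both PRT4165 plates lay between the vehicle plates. The subunit mt-Co1 was at 112337 and 74597 with vehicle and 74647 and 78658 with PRT4165, a log2 fold change of -0.29 ± 0.40 (SE), the lowest of the 13. The highest was that of mt-Cytb, at 18076, 11615, 15533 and 19960, with 0.26 ± 0.42. All 13 genes had overlapping groups, 7 of 13 had log2 fold changes above 0, and their median was 0.01. Every one had an adjusted p of 0.9997 in edgeR's quasi-likelihood test. This near-zero median joins opposite differences: within replicate 1, 12 of the 13 genes were lower with PRT4165 (median log2 difference -0.28), and within replicate 2 all 13 were higher (0.30). Without vehicle replicate 1 all 13 log2 fold changes were above 0 (median 0.55), and without vehicle replicate 2 none was (median -0.39), where the medians of all genes were 0.13 and 0.19.

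The mitochondrial genes instead differed between the replicate numbers. For 9 of the 13, both replicate 2 plates lay below both replicate 1 plates, and for none above, whereas over the 12813 genes tested 17.4% were lower and 19.5% higher on both replicate 2 plates. With every cell scaled to the same total before summing, 2 of 13 were lower and 3 higher. The part of the weight of deep and shallow cells in this order was not tested. The composition differed too. The complex I subunit gene mt-Nd3 made up 0.513% and 0.538% of mitochondrial counts on the replicate 1 plates of vehicle and PRT4165 and 0.244% and 0.278% on the replicate 2 plates. The per-cell medians of this share were 0.543%, 0.266%, 0.526% and 0.270%. The genes mt-Nd2 (0.595% and 0.628% against 0.456% and 0.464%) and mt-Nd6 (0.205% and 0.250% against 0.165% and 0.157%) were also higher in replicate 1 of both treatments.

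Nuclear members were far less abundant than mitochondrial ones of the same complex. The median nuclear gene of complex IV was at 261 CPM per kb, against 55055 for its 3 mitochondrial genes, and the medians were 186.9 and 61135 for complex V, 77.2 and 14245 for complex III and 94.8 and 3564 for complex I. The ratio of the medians was 37.6 in complex I and between 184.6 and 327.1 in complexes III, IV and V. The few most abundant nuclear genes carried much of the total, with Atp5l, Ndufa4, Uqcrb, Atp5g3 and Atp5j making up 34.4%, 25.7%, 31.3% and 28.3% of nuclear member counts. The median nuclear member was at 110.8 CPM, and 42 were under 100. Lengths are those of the longest coding transcript in GENCODE M21, so levels per kilobase of genes that use shorter forms are too low.

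Complex I, the largest of the complexes, had 37 nuclear genes, all tested. Its highest members were Ndufb6 at 670, 717, 892 and 1032 CPM, Ndufb5 at 381, 243, 381 and 379, and Ndufb1 at 406.6, 217.5, 320.7 and 432.1, all accessory subunits of the membrane arm. Ndufb6 was higher on both PRT4165 plates than on either vehicle plate (log2 fold change 0.47 ± 0.42), and the other two overlapped. The core subunit Ndufv2 of the NADH-oxidising module was at 378, 335, 232 and 326 CPM, lower on both PRT4165 plates (-0.36 ± 0.47). Over the complex, 22 of 37 log2 fold changes were above 0, with a median of 0.13 and a range of -0.40 to 0.62. The groups did not overlap for 5 genes that were higher with PRT4165 (Ndufa7, Ndufb2, Ndufb3, Ndufb6 and Ndufs3), and Ndufv2 was among those that were lower.

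The assembly factors of complex I, which help to build it and are not part of the finished enzyme, were the lowest group, with a median of 16.6 CPM per kb. Ndufaf5 was at 3.48, 12.3, 4.38 and 50.1 CPM, with its highest plate far from the other PRT4165 plate, and 36.2% of the counts on PRT4165 replicate 2 came from 1 cell. Ndufaf1 was at 11.1, 62.4, 14.6 and 18.8 CPM, and 1 cell gave 61.1% of the counts of vehicle replicate 2, the highest plate. Ndufaf4 was at 59.1, 46.3, 76.3 and 109 CPM, with no overlap of the groups (log2 fold change 0.81 ± 0.56), in 34.9% of cells. Ndufaf2 was at 37.8, 18.9, 19.9 and 17.4 CPM, where vehicle replicate 1 stood apart from the others.

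Complex II, which is also an enzyme of the citric acid cycle, was measured through its 4 subunit genes. Sdha, the flavoprotein subunit, was at 147.9, 112.8, 113.5 and 86.8 CPM (log2 fold change -0.38 ± 0.52). The iron-sulphur subunit Sdhb was at 113.3, 83.7, 73.97 and 123.6, and the membrane anchor Sdhd at 68.2, 62.4, 57.7 and 96.5. The other anchor, Sdhc, was the lowest, at 11.2 to 25.2 CPM. None of the 4 separated the treatments, and within replicate 1 all 4 were lower with PRT4165 while within replicate 2 3 of 4 were higher.

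Complex III was led by Uqcrb, a small subunit, at 1213, 973, 1046 and 1334 CPM. Uqcrh, the hinge subunit, was at 213, 246, 241 and 296, and Uqcr11 at 126.6, 179.5, 90.5 and 167.9. All 3 had overlapping groups. The haem-bearing subunit Cyc1 had the largest log2 fold change of the complex, 1.09 ± 0.74, from 14.7 and 36.6 CPM with vehicle to 75.7 and 33.7 with PRT4165. The groups overlapped and 1 cell gave 59.6% of the counts of PRT4165 replicate 1, the highest plate. Of the 9 genes, 3 had log2 fold changes above 0 and the median was -0.02. Cytochrome c itself, from Cycs, was at 244, 258, 308 and 225 CPM (0.09 ± 0.47), with both vehicle plates between the PRT4165 plates.

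In complex IV, the accessory subunit Ndufa4 was the most abundant, at 1693, 927, 1016 and 1202 CPM, followed by Cox4i1 at 643, 964, 680 and 1063 and Cox7b at 539, 354, 406 and 533. In all 3 the groups overlapped, and Cox4i1 was higher on both replicate 2 plates. Cox6c was at 304, 241, 323 and 474 CPM, higher on both PRT4165 plates (log2 fold change 0.55 ± 0.47) and in 98.96% of cells. Of 15 genes, 13 had log2 fold changes above 0, with a median of 0.15.

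Several subunits of complex IV come in isoforms of different tissues, but most of the alternative forms were not among the members. Cox6b1 could be compared with Cox6b2, and Ndufa4 with its relative Ndufa4l2. In both cases the first was the abundant one here. Cox6b1, the widespread form, was at 105.3, 167.9, 100.8 and 193.8 CPM in 96.2% of cells, whereas Cox6b2, known from testis, had 2, 21, 9 and 82 counts in all and was found in 3.46% of cells. Its log2 fold change of 1.87 ± 1.73 rests on these counts, of which 1 cell gave all on either vehicle plate. Ndufa4l2, the relative of Ndufa4 that is known to be induced by low oxygen, was at 5.76, 5.55, 2.06 and 3.71 CPM in 9.34% of cells, lower on both PRT4165 plates (-0.97 ± 1.03), with 78.2% of the counts of PRT4165 replicate 2 from 1 cell. Cox6a1 was at 61.4, 80.4, 70.7 and 98.8 CPM, Cox8a at 106.3, 214.1, 146.3 and 258.6, and Cox7a2 at 190.5, 163.2, 209.7 and 183.7. Cox7a2l, a factor in joining complexes III and IV into supercomplexes, was at 164.98, 196.6, 147.8 and 250.3. The first, second and last of these 4 were higher on both replicate 2 plates and Cox7a2 was lower there. The muscle and other isoforms Cox4i2, Cox6a2, Cox7a1, Cox7b2, Cox8b, Cox8c and Uqcrhl were not among the genes that the rule found, so they could not be compared.

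Complex V, the ATP synthase, held the most abundant nuclear member. Atp5l, subunit g of the membrane part, was at 1726, 1006, 1550 and 1334 CPM, with both PRT4165 plates between the vehicle plates. Atp5g3, which encodes the c subunit of the rotating ring, was at 711, 721, 873 and 1524, higher on both PRT4165 plates. Its log2 fold change of 0.74 ± 0.46 had the smallest p of all members (unadjusted 0.148, adjusted 0.9997), and the difference between the PRT4165 plates was larger than that between PRT4165 replicate 1 and either vehicle plate. The coupling subunit Atp5j was at 858, 765, 813 and 953, and overlapped. The genes Atp5g1 and Atp5g2 encode the same mature c subunit as Atp5g3 and were at 114.6, 164.9, 126.7 and 262.7 CPM and at 68.7, 130.3, 93.0 and 149.4 CPM. Both were higher on the replicate 2 plates of each treatment and did not separate the treatments.

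All 17 tested genes of complex V had log2 fold changes above 0, between 0.08 and 0.74, with a median of 0.24, where 48.9% of all 12813 genes were above 0 with a median of -0.02. None of these differences was called. Within replicate 1, 11 of the 17 were higher with PRT4165 (median log2 difference 0.05) and within replicate 2 all 17 were (0.47). Without PRT4165 replicate 2, 10 of 18 were above 0 with a median of 0.01, against -0.16 for all genes, and with every cell scaled to the same total 16 of 17 were. The groups did not overlap for 3 of the 17, Atp5a1, Atp5c1 and Atp5g3.

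**Figure D3:**
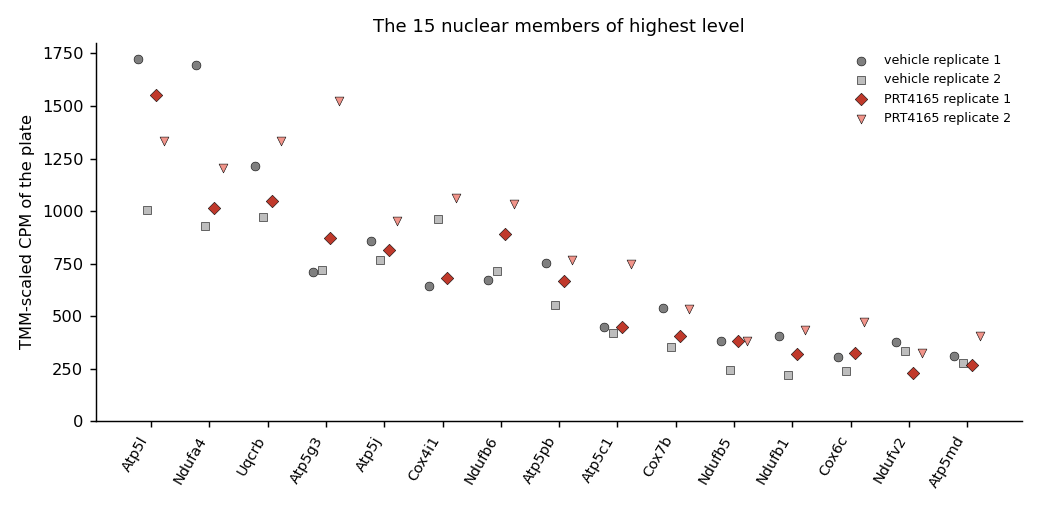
TMM-scaled CPM of the 15 nuclear members of highest mean level on each of the 4 plates. Atp5l ranges from 1006 to 1726 with the PRT4165 plates between the vehicle plates, and for Atp5g3 both PRT4165 plates (873 and 1524) lie above both vehicle plates (711 and 721).

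No member passed the threshold. In edgeR's quasi-likelihood test on the plate sums, 0 of 12813 genes (0.0%) had an adjusted p under 0.05, with a smallest value of 0.900. At an unadjusted p under 0.05 there were 609 genes (4.75%), 327 higher and 282 lower with PRT4165, and 0 of the 104 members tested. DESeq2 on the same sums called 90 genes that were higher and 73 that were lower with PRT4165, and again 0 members. These calls are a small share of the 12813 genes, so their absence among 104 members says little about the members. Among nuclear members, 63 of 91 log2 fold changes were above 0 with a median of 0.19. Their standard errors ran from 0.42 to 1.73, with a median of 0.55. Without PRT4165 replicate 2, 35 of 92 were above 0, with a median of -0.14 against -0.16 for all genes, so the count above 0 rests on that plate, and without vehicle replicate 1 it was 53 of 92.

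In the plate sums, fewer members than other genes separated the treatments without overlap, but this depended on the scaling of cells. Both PRT4165 plates lay above both vehicle plates for 11 members (10.6%) and below them for 3 (2.88%). Of all genes tested, 16.1% were above and 15.3% below. Of the 981 genes at or above the median nuclear member level, 14.6% were above and 10.5% below. The 11 were Atp5a1, Atp5c1, Atp5g3, Cox6c, Cox7c, Ndufa7, Ndufaf4, Ndufb2, Ndufb3, Ndufb6 and Ndufs3, and those below included Ndufa4l2 and Ndufv2. With every cell scaled to the same total, 25 of 104 members lay above, a larger share than the 17.1% of all genes. Below lay 3 members, against 16.8% of all genes. In both replicate numbers, 37 of 91 nuclear members (40.7%) were higher with PRT4165, against 25.4% of all genes. In both, 12 (13.2%) were lower, against 24.7%. Taken alone, replicate 1 had 51 of 91 higher, with a median log2 difference of 0.022 against 0.016 for all genes. Replicate 2 had 65 of 91 higher, with a median of 0.256 against 0. In the medians, the difference from all genes thus lay in replicate 2.

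**Figure D4:**
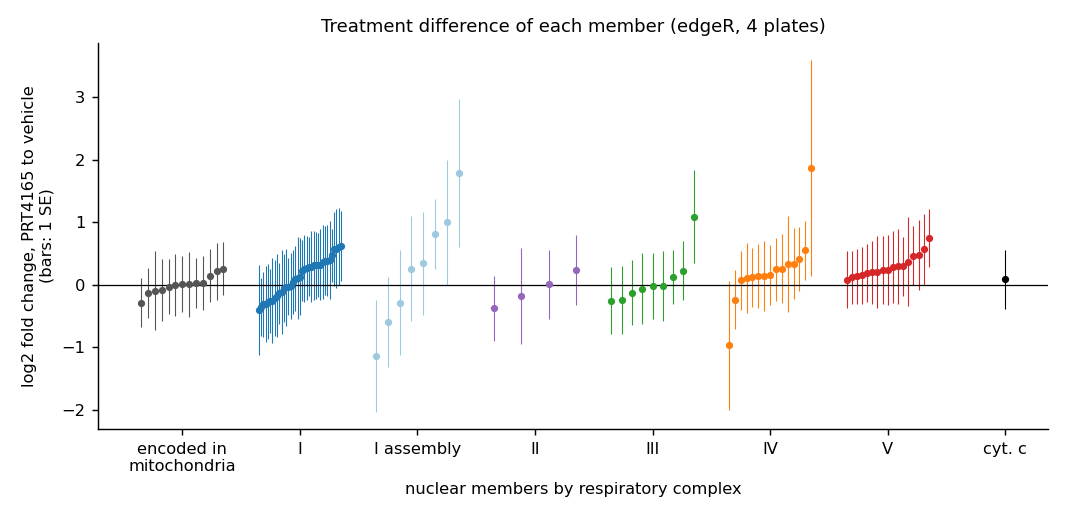
Log2 fold change of PRT4165 to vehicle for each of 104 members, by genome and complex, with bars of 1 SE from edgeR's fit to 4 plates. The 17 genes of complex V all lie above 0, and the 13 mitochondrial genes lie between -0.29 and 0.26.

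The nuclear members were split by replicate number more than by treatment. For 47 of the 91 (51.6%) both replicate 2 plates were higher than both replicate 1 plates, and for 6 (6.59%) lower, against 19.5% and 17.4% of all genes. This held in each complex with a mitochondrial part, with 22 of 37 genes of complex I, 5 of 9 of complex III, 8 of 15 of complex IV and 9 of 17 of complex V higher on replicate 2. In the plate sums this was opposite to the mitochondrial genes, but in the median cell both the mitochondrial and the nuclear share were higher on replicate 2 in either treatment. The count was between 37 and 51 of 91 under 5 other scalings or cell filters. Across the 91 nuclear members the log2 difference of replicate 2 to replicate 1 had a Pearson correlation of 0.20 between the vehicle and the PRT4165 plates, which share no cells, against 0.05 over all genes and 0.23 over the 981 genes at or above the median nuclear member level. Across the 13 mitochondrial genes it was 0.53.

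Examples show the size of this split. Atp5d, the delta subunit of ATP synthase, was at 53.7 and 77.2 CPM on the replicate 1 plates of vehicle and PRT4165 and at 162.4 and 202.1 on the replicate 2 plates. Ndufb10, an accessory subunit of complex I, was at 64.2 and 72.3 on replicate 1 and 157.5 and 106.8 on replicate 2. Cox5b was at 142.1 and 146.1 on replicate 1 and 248.8 and 286.1 on replicate 2. Atp5l went the other way, at 1726 and 1550 on replicate 1 and 1006 and 1334 on replicate 2. Atp5d, Ndufb10 and Cox5b were named after their values were seen.

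The base composition of the transcripts moved with this split. Over 86 of 91 nuclear members with a sequence, the Spearman correlation between GC content and the log2 difference of replicate 2 to replicate 1 was 0.42 in vehicle and 0.31 in PRT4165, against 0.15 in both over all genes and 0.32 and 0.33 over 962 genes at or above the median nuclear member level. From the lowest to the highest of 3 groups by GC content, from 38.4% to 48.7%, 48.8% to 53.9% and 54.4% to 60.4%, the median log2 difference was 0.03, 0.25 and 0.72 in vehicle and 0.26, 0.49 and 0.70 in PRT4165. The difference between treatments did not follow GC content, with a correlation of -0.02. The replicate number is given as a batch in the labels, and the part of base composition in the difference was not tested.

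**Figure D5:**
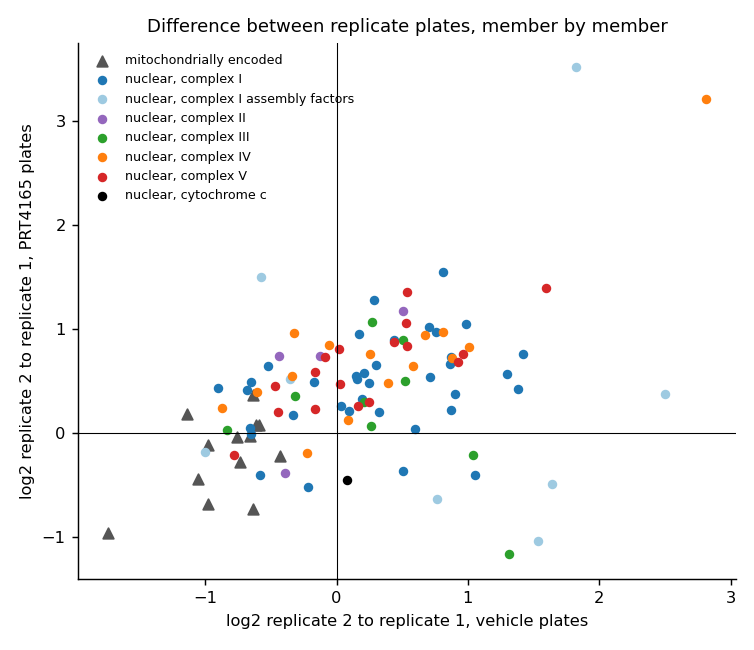
Log2 ratio of replicate 2 to replicate 1 in the vehicle plates (horizontal) and the PRT4165 plates (vertical) for 104 members. Most nuclear members (circles) lie above 0 on both axes, 47 of 91 with no overlap of the replicate numbers, while the mitochondrial genes (triangles) lie below 0 on the horizontal axis.

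The levels of nuclear members were weakly correlated from cell to cell. For the 54 nuclear members detected in at least 80% of cells, the median Spearman correlation between 2 members was 0.18 over 75 cells, 0.16 over 58, 0.15 over 76 and 0.20 over 80, against 0.07, 0.06, 0.04 and 0.04 between all 606 genes so detected. Pairs above 0 made up 87.98%, 81.97%, 77.6% and 88.8% of member pairs and 59.4% to 62.5% of all pairs. Pairs within the same complex were not closer than pairs of different complexes on 2 of the 4 plates, with medians of 0.20 against 0.18 on vehicle replicate 1 and 0.13 against 0.16 on PRT4165 replicate 1. The mitochondrial and nuclear shares of a cell had Pearson correlations of -0.03, 0.27, -0.08 and 0.16. These values share the depth of each cell.

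Other genes of mitochondria gave no call either. Of 20 regulators of mitochondrial biogenesis 0 passed the adjusted threshold and 2 the unadjusted one, both at very low levels. Esrrg, an oestrogen-related receptor, was at 0.0363, 0.0969, 10.6 and 5.97 CPM, with 99.8% and 92.0% of the counts of the PRT4165 plates from 1 cell each. The coactivator Ppargc1a was at 6.60, 5.67, 0.0702 and 0.381, with 97.3% and 99.6% of the counts of the vehicle plates from 1 cell each. The most abundant of this list were Ssbp1 at 194.6, 77.7, 170.5 and 129.8 CPM and Yy1 at 60.6, 31.4, 47.7 and 83.5.

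Of 17 genes of mitochondrial RNA processing 1 passed the unadjusted threshold, Fastkd1, at 17.6, 17.7, 3.82 and 1.62 CPM. It was found in 14.5% of cells. On each plate, 1 cell gave 74.3%, 32.6%, 52.1% and 27.8% of its counts. The most abundant of this list were Slirp at 111.1, 83.3, 164.2 and 110.7 and Hsd17b10 at 34.3, 47.9, 27.4 and 72.2. Of 38 further assembly factors 2 passed the unadjusted threshold, Coa6 at 91.9, 27.5, 18.1 and 13.5 and Sdhaf3 at 28.1, 97.8, 11.1 and 10.4. Here 1 cell gave 68.2% of the Coa6 counts of vehicle replicate 1 and 73.2% of the Sdhaf3 counts of vehicle replicate 2. Acad9 and Cox20 led this list, at 194.7, 126.98, 242.6 and 293.97 CPM and 127.6, 120.8, 146.5 and 160.97. None of 17 citric acid cycle genes, led by Pdhb and Idh3b, and none of 17 carriers and outer membrane proteins did. The adenine nucleotide carrier Slc25a5, which exchanges ATP for ADP, was at 4620, 3081, 4120 and 3242 CPM, above every nuclear member, and the phosphate carrier Slc25a3 at 937, 622, 935 and 636, both higher on the replicate 1 plates.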

How the data were processed

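Single tomato-positive cells were sorted into plates and sequenced with a modified Smart-seq2 protocol. The authors quantified the reads against the mouse transcriptome with Salmon 0.13.1 (R 4.0.3 and Seurat are also named in the submitters' processing notes) and deposited estimated counts for each gene symbol in each cell, without scaling; 18.3% of the values above 0 were not whole. All 289 columns were matched to samples by title, and the label AC was read as vehicle, since PRT4165 and vehicle are the only treatments that the labels mention. Treatment labels also hold unexplained codes that differ between the treatments.

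Counts were summed over the cells of a plate and rounded, to 31584172, 36778624, 40801004 and 43149666 per plate, filtered with filterByExpr, scaled with TMM factors and compared in edgeR 4.0.16 (R 4.3.3) by its two-sided quasi-likelihood test, with Benjamini-Hochberg adjustment over the 12813 genes tested and a threshold of 0.05; DESeq2 1.42.0 was an alternative. CPM are TMM-scaled, except for the marker lists and their single genes, which were scaled to the plate total only. The self-test on simulated counts was passed, but those counts had a far smaller spread between plates than these data (biological coefficient of variation 77.1%). It therefore does not show what the test can find at the spread seen here. The SE of each log2 fold change was derived from its F statistic, as the absolute change over the root of F. Per-plate values were compared by exact permutation over 4 plates. Log2 differences within a replicate number used CPM plus 1. Whether Salmon divided reads between members and near-identical copies (Cox5b and Cox5b-ps, Atp5o-I and Atp5o-II, pseudogenes) is not given in the sources used here, so levels of such genes are uncertain. Annotation was GENCODE M21 (GRCm38), in which 99 of 105 members were found by symbol.

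The labels give the replicate number as a batch, so same-numbered plates may be paired. Their deviations had a correlation of 0.028 over all tested genes. The main fit and the main permutation tests had no block and so did not use this pairing. The blocked forms were alternatives. The members, gene lists and tests were chosen with earlier results of these data known. Named genes are all mitochondrial genes, the 3 most abundant nuclear members of each complex, the 5 of smallest p in each direction, fixed isoform pairs, members whose groups did not overlap (not every one is reported here), and in other lists the 2 most abundant and those past a threshold.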

Additional observations from a re-analysis of the deposited data

How the results depend on the processing

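The direction of the per-plate medians depended on how cells were weighed. The difference in the mitochondrial share was -0.681 percentage points in summed counts, the log2 ratio of mitochondrial to nuclear counts differed by -0.149 for plate means and -0.209 for summed counts, and the share of cells above the limit differed by 2.998 percentage points at 30%; the cause was not tested. Leaving out a plate moved the mitochondrial share difference between 0.621 and 5.90 percentage points, the nuclear share between 0.0169 and 0.414 (0.431 for plate means over cells with all plates), the log2 ratio between 0.03 and 0.22 and the share above the limit between -2.17 and -0.656, with no change of direction. DESeq2 called 90 genes higher and 73 lower with PRT4165 where edgeR called 0 of either. No member was called by either tool, which says little about the members, since few genes of any kind were called. With every cell scaled to the same total, 28 members separated the treatments in place of 14. With the replicate block edgeR called 0 genes (285 higher and 258 lower at an unadjusted p under 0.05, in place of 327 and 282), and the block changed no other call. The exact permutation p within replicate numbers was at least 0.5. That is the smallest value this design allows, so this blocked test could not have shown a difference. Of 540 values of 45 named genes under 12 alternatives, 506 moved by less than 1 SD of the plates, and 75 had the opposite sign to the reported value. The biological coefficient of variation between plates was 77.1%.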
